A study of Drosophila melanogaster with 3 samples.

Results

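Of the 10239 binding peaks kept for the fly protein CG8159, 268 (2.62%) had their summit, the base of highest signal, inside an annotated exon and more than 500 bp from the nearest transcription start site of any gene. Members were found from the deposited list of peaks that passed the irreproducible discovery rate (IDR) procedure and the Ensembl gene models on dm6, with transposable elements left out. The choice used position alone and no signal value. By the exon they fell in, 117 of the 268 lay in noncoding exons, 75 in 3′ UTRs, 61 in 5′ UTRs and 15 in coding sequence. They belonged to 233 host genes, of which 204 held a single member.

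The binding was mapped by chromatin immunoprecipitation and sequencing (ChIP-seq) in whole pupae of Drosophila melanogaster at 24 hours, with the sexes pooled. Per the labels, all animals came from a single transgenic line with a stable insertion of CG8159 carrying GFP at its C terminus, and the sample description gives an anti-GFP antibody where the antibody label reads CG8159. The 3 samples were biological replicates of 1 group, numbered 1 to 3, and there was no untreated, untagged or second-stage group, so all comparisons are between classes of sequence. In chromatin from whole animals, strong binding in few cells and weak binding in many cannot be told apart.

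An exon is the part of a gene kept in its mature RNA. In a protein-coding gene the exons hold the coding sequence and, on either side, the 5′ and 3′ untranslated regions (UTRs), which carry signals for translation, RNA stability and cleavage. Long noncoding RNAs (lncRNAs) consist of exons without a coding sequence, and many in the fly lie inside introns of other genes or between genes. Genomic DNA of exons can hold protein binding sites as DNA of introns can, but coding sequence is poorer in A and T than introns, and fly 3′ UTRs are richer.

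As examples of the bases at the summits, 3 members of high signal in each class are given. They are the strongest that all replicates held, with otp left out of the coding class, each shown as the summit base and the 14 bases to either side, on the + strand of dm6, from the RefSeq copy of the release 6 assembly. Capitals mark unbroken runs of at least 5 A or T. The longest run was in the 5′ UTR member of firl, where 25 of 29 bases were A or T. The 3 coding members had no run of that length, and neither did lncRNA:CR46035, stas and Lsd-2, of which Lsd-2 had only 8 A or T bases. The examples thus varied within the classes as well as between them.
lncRNA:Vinr, noncoding exon, chrX:12751318-12751346: AATTTTgATATATgccaatcccttacatg
lncRNA:CR46035, noncoding exon, chr3R:17704400-17704428: tttctgatcaagtcactcatcaaaagact
lncRNA:CR44619, noncoding exon, chrX:12754525-12754553: aaaacAAATTAAgaaaagcgaagAAAAAT
stas, 3′ UTR, chrX:17625086-17625114: gtgaagaaccagttttgagcattgtgggt
APC7, 3′ UTR, chrX:6599472-6599500: aatagtccTTTATcatccattgtcTAAAA
Lsd-2, 3′ UTR, chrX:15069527-15069555: cgccgaaggcgggggctcatcctgaggct
baz, 5′ UTR, chrX:17178680-17178708: acattgTTAATTTAgttatgTTTTTgtat
Raf, 5′ UTR, chrX:2296306-2296334: aaatcttacaaatcgcagTATTTAcctgg
firl, 5′ UTR, chr2L:12065861-12065889: ATATAgAATTTATATAgaatctcAAAATT
Gbs-70E, coding sequence, chr3L:14542222-14542250: ttctgacccttatcatagggcgacaaggc
bif, coding sequence, chrX:11681809-11681837: taccaattccgattccactggaggtcatc
CG13116, coding sequence, chr2L:9730443-9730471: aaacacggcctttggaaagtgccacccta

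The values came from peak lists, with a signal per peak that is the caller's own and was used only to rank and describe peaks within a list. Each replicate list held 30000 peaks, and the strongest 10239 of each were compared with the IDR list. No read numbers came with the lists used here, so their depth is unknown, and intervals cover counting error only. A peak is called held by a replicate when one of those strongest peaks overlapped it by at least 1 bp. All 3 replicates held 187 of the 268 members (69.8%, 95% Wilson interval 64.0 to 75), against 78.3% of all IDR peaks. A further 67 members were held by 2 replicates and 14 by 1. In the full lists of 30000 peaks, 261 members had an overlapping peak in all 3 replicates. When each replicate was judged by its own summit, 227 members (84.7%) were again exonic and away from start sites in all 3 replicates, and 3 were so in none. The replicate summits lay a median of 16, 16.5 and 12.0 bp from the IDR summit in replicates 1, 2 and 3.

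Exons away from start sites held few summits for their length, fewest in coding sequence and 3′ UTRs. Exonic sequence made up 19.8% of the 6 chromosome arms and held 10.2, 9.27 and 9.91 summits per Mb in replicates 1, 2 and 3, and introns away from start sites held 83.6, 85.3 and 87.2. The log2 ratio of exonic to intronic density was -3.04, -3.20 and -3.14 (mean -3.13 ± 0.08 SD, n = 3), below 0 in each replicate. An exact two-sided sign-flip permutation test gave p = 0.25, the smallest value that 3 replicates allow, so no difference in density or signal between classes could pass a threshold of 0.05 here. Coding sequence held 0.889 ± 0.0628 summits per Mb (SD, n = 3 replicates) and 3′ UTRs 12.3 ± 0.843. 5′ UTRs held 56.9 ± 2.93, also below introns in each replicate (log2 ratios of -0.49, -0.57 and -0.70), and noncoding exons 100.3 ± 12.9, against 85.4 ± 1.83 in introns. In each replicate noncoding exons were the only exon class with a higher density than introns, with log2 ratios of 0.29, 0.02 and 0.36, and the second of these is close to no difference.

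**Figure D1:**
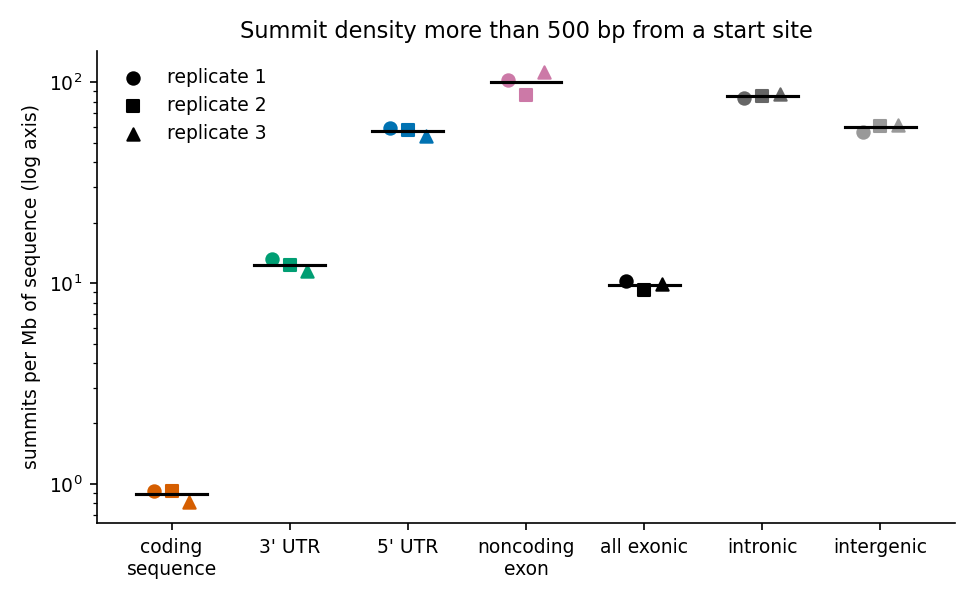
Summits per Mb of sequence (log axis) more than 500 bp from a start site, in each exon class, in all exons, in introns and between genes. Each symbol is 1 replicate, counted from its strongest 10239 peaks, and the bar is the mean. Coding sequence lies near 0.889 per Mb and noncoding exons near 100.3. Over the replicates noncoding exons ranged from 86.6 to 112.1 and introns from 83.6 to 87.2.

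The classes also differed in base composition, and in introns the density of summits rose with A+T content above 50%. Composition was measured over the summit base and 50 bases to either side. Introns with 50 to 60% A+T held 25.3 IDR summits per Mb and introns with 70 to 80% held 270.9. Applying the intronic density of each of 6 A+T ranges to the exonic sequence in that range gave 479.6 summits for coding sequence, where 15 were found, a ratio of 0.0313. The same ratio was 0.0320 ± 0.00112 (SD, n = 3) over the replicates. For 3′ UTRs, 765.7 summits would have matched the introns and 75 were found, with a replicate ratio of 0.0977 ± 0.0103. For 5′ UTRs the figures were 60.4 and 61, with a replicate ratio of 0.976 ± 0.0485. For noncoding exons they were 82.7 and 117, with a replicate ratio of 1.34 ± 0.164. At equal A+T content, therefore, 5′ UTR density came within its replicate spread of intronic density, coding sequence and 3′ UTRs lay far below it, and noncoding exons lay above it in every replicate (ratios of 1.38, 1.16 and 1.48). The contrast was visible in the A+T-rich sequence itself: with 70 to 80% A+T, 3′ UTRs held 22.2 IDR summits per Mb over 1.62 Mb, 5′ UTRs 192.7 and noncoding exons 412.9.

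Distance from a start site moved with the class as well. Of the 5′ UTR members 43 of 61 lay 501 to 1000 bp from a start site, of the noncoding members 54 of 117, of the coding members 8 of 15 and of the 3′ UTR members 13 of 75. Within that range noncoding exons held 111.4 ± 17.1 summits per Mb (SD, n = 3) and introns 147.8 ± 0.346. At 1001 to 2000 bp the values were 109.3 ± 12.3 and 116.7 ± 0.916, and at 2001 to 5000 bp 69.6 ± 12.3 and 94.0 ± 3.03. Beyond 5000 bp noncoding exons held 89.1 ± 17.9, from 11 IDR summits, and introns 63.8 ± 2.26. The mean for noncoding exons thus lay below that for introns in 3 of the 4 ranges and above it only in the last. 5′ UTRs held 89.8 ± 5.94 per Mb at 501 to 1000 bp and 14.3 ± 3.55 beyond 5000 bp, below introns in both. Coding sequence held 2.00 ± 0.266 and 0.0985 ± 0.171 in these ranges, and 3′ UTRs 12.1 ± 2.39 and 5.92 ± 1.28. Neither of these classes fell steadily in between. At 1001 to 2000 bp and 2001 to 5000 bp coding sequence held 0.443 ± 0.11 and 0.927, and 3′ UTRs 20.1 ± 1.12 and 10.8 ± 1.22. The parts of distance and composition were not separated from each other.

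The exonic summits were weaker than the intronic ones, except in noncoding exons. Among the strongest 10239 peaks of each replicate, the median exonic summit ranked at 62.8%, 59.7% and 57.2% of the way down the list in replicates 1, 2 and 3, and the median intronic summit at 50.3%, 49.3% and 50.5%. The difference was 9.83 ± 2.93 percentage points (SD, n = 3, exact sign-flip permutation p = 0.25), towards lower signal in each replicate. In the IDR list the median signal was 424.6 for the members and 525.8 for intronic summits. By class it was 501.6 in noncoding exons, 417.2 in 3′ UTRs, 395.5 in 5′ UTRs and 349.0 in coding sequence. The median rank of noncoding-exon summits differed from that of intronic summits by 0.27, 4.0 and -3.23 percentage points, which is within the spread between replicates. Only 18 of the 268 members (6.72%) stood among the 1023 strongest IDR peaks, none of them in coding sequence.

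**Figure D2:**
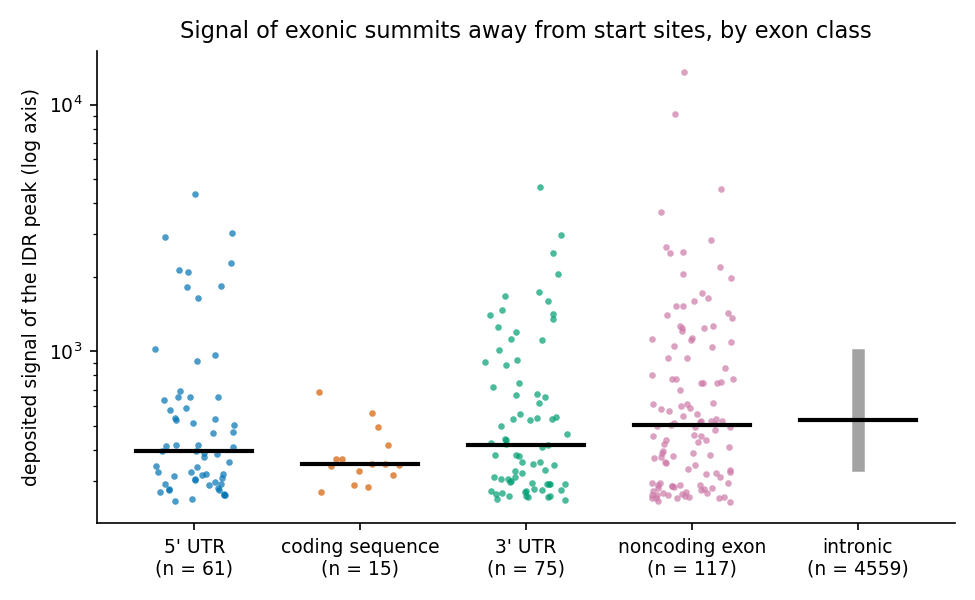
Deposited signal of each of the 268 members (log axis, 1 point a summit) by exon class, with black bars at the class medians; for the 4559 intronic summits the grey bar spans the quartiles. The coding members end at 684.6, and the strongest points, at 13528.2 and 9202.1, are in noncoding exons.

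Coding summits were rarest among the strongest peaks and stayed few among the weakest. In the 3000 strongest peaks of each replicate, 0.0333% of summits lay in coding sequence away from start sites, which is 1 summit in each replicate, and 1.11 ± 0.140% (SD, n = 3) lay in noncoding exons. In ranks 27001 to 30000 the coding share was 2.97 ± 1.04% and the noncoding share 1.14 ± 0.154%. Coding sequence away from start sites made up 13.7% of the chromosome arms. The 3′ UTR share rose from 0.556 ± 0.0510% to 2.01 ± 0.336% over the same ranks and the 5′ UTR share from 0.344 ± 0.0196% to 1.03 ± 0.0890%. Promoter summits went the other way, from 35.5 ± 1.21% to 14.9 ± 0.889%. The pooled list showed the same order, with 0 coding summits in its first 3000 peaks and 80 in its last. Among the 19761 pooled peaks below the IDR list, 976 summits (4.94%) met the position rule, 269 of them in coding sequence. The IDR list therefore ends before the ranks in which coding summits were most frequent.

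**Figure D3:**
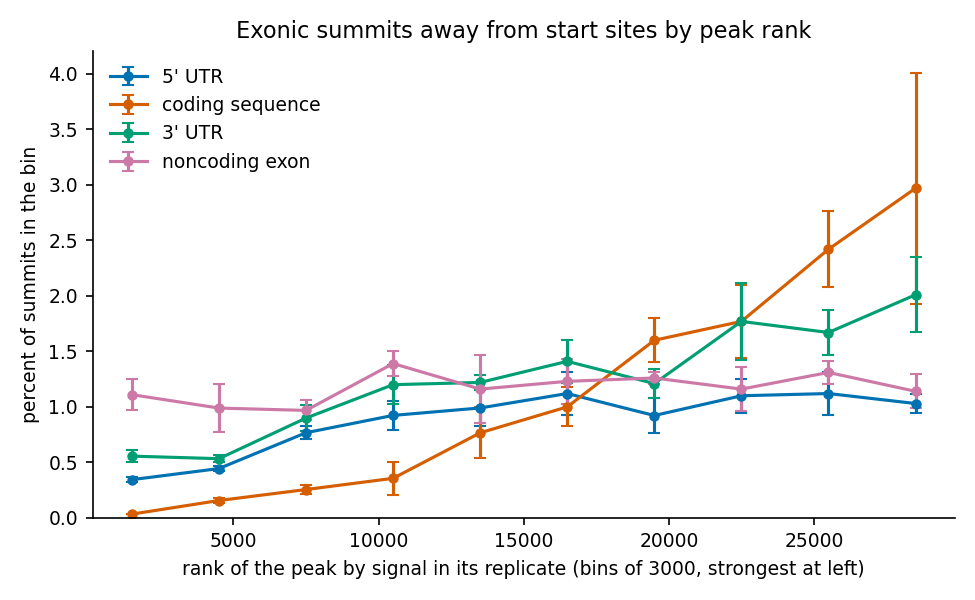
Percent of summits in each exon class, more than 500 bp from a start site, by the rank of the peak in its replicate (bins of 3000 peaks, strongest at the left). Points are means of the 3 replicates and bars are SDs: coding sequence rises from 0.0333% to 2.97%, and noncoding exons begin at 1.11% and end at 1.14%.

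The noncoding exons all belonged to genes annotated as ncRNA, and they held the strongest members. The first was in the exon of lncRNA:Vinr on X, an RNA named for its induction by virus, with a summit at 12751332. Its IDR signal was 13528.2, and its signal in replicates 1, 2 and 3 was 5503.3, 3202.2 and 4287.2, at ranks 8, 14 and 5 of the lists. No replicate thus ranked it below 14. The start site of lncRNA:CR44619 lay 535 bp from this summit, and by their own summits 2 of the 3 replicates met the distance rule. lncRNA:CR44619 itself held the fourth strongest member (signal 4559.8, replicate ranks 359, 161 and 127).

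The neighbourhood of lncRNA:Vinr held 6 members, at positions from -2923 to 3207 bp of its strongest summit, and all 3 replicates held each of them. These were a pair in the longest 3′ UTR of CG4004 (signals 1200.8 and 747.2), a pair in lncRNA:Vinr (500.6 and 13528.2) and a pair in lncRNA:CR44619 (592.3 and 4559.8). A further summit of signal 8833.4, in exons but 493 bp from the start of lncRNA:CR44619, fell just short of the distance rule. Downstream of lncRNA:CR44619 lay 2 intergenic summits with signals of 2189.5 and 1530.7. Overlapping replicate peaks in such a cluster share signal, and the pair in CG4004 was matched to 1 and the same peak in replicate 2 (signal 329.0).

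**Figure D4:**
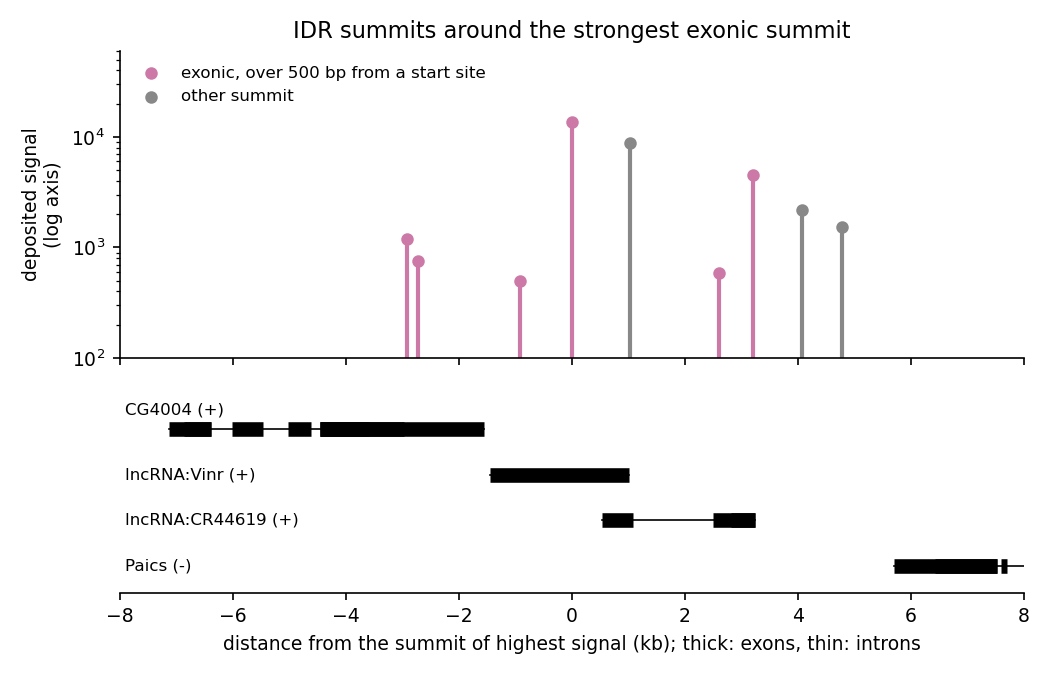
IDR summits (above, signal on a log axis) and annotated genes (below, exons thick and introns thin, strand in brackets) by distance in kb from the strongest member, in lncRNA:Vinr. Coloured summits are exonic and more than 500 bp from a start site, grey ones are not: the 6 coloured summits lie in CG4004, lncRNA:Vinr and lncRNA:CR44619.

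Some of the lncRNA summits lay inside introns of other genes. Of the 117, 36 were within an intron of a second gene, and in 28 of these the second gene was on the opposite strand. The share of all noncoding exon sequence that lies in such introns was not measured, so the count does not set the members apart. The second strongest member, in lncRNA:CR46035 on 3R (signal 9202.1, replicate signals 3419.8, 2888.3 and 2907.2), was inside an intron of osa, which encodes a subunit of the Brahma chromatin remodelling complex. The sixth, in lncRNA:CR44331 (signal 3667.0, replicate signals 1445.8, 973.3 and 1244.1), was inside an intron of puc, a phosphatase that restrains Jun kinase signalling. Both were among the 414 strongest peaks of each replicate. The remaining noncoding members among the 12 strongest were in lncRNA:CR44363 on 3L (2827.0), lncRNA:CR43334 on 3L (2657.5) and lncRNA:CR44365 on 2R (2528.4). The gene with most members was lncRNA:CR43334, with 5 over an exon of 15466 bp and signals from 262.4 to 2657.5. lncRNA:CR43650 on 2R held 3, with signals from 1087.4 to 1647.8, and lncRNA:CR43493 on X held 3, with signals from 281.1 to 613.7, inside an intron of l(1)G0196.

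The 5′ UTR members were in protein-coding genes, mostly with several transcripts. Of the 61, 30 were exonic in only 1 of several transcripts of the host, and 35 were intronic in some other transcript that spanned them. The same shares over all 5′ UTR sequence away from start sites were not measured. The strongest was in baz, the Par-3 polarity protein (signal 4361.9, replicate signals 1620.9, 1349.5 and 1464.1), 4548 bp from a start site. It ranked between 185 and 280 in the 3 replicates. Raf, the kinase of the MAP kinase cascade, followed (3012.7, replicate signals 1372.7, 663.7 and 983.1), with its summit 34 bp from the end of an exon of 200 bp. firl on 2L had a signal of 2898.0 (replicate signals 1198.5, 844.9 and 886.3). Raf varied most of these between replicates, at rank 405 in replicate 1 and 851 in replicate 2. Of the 61 members, 55 had the start site of their own host as the nearest one.

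Of the 3′ UTR members, 45 of 75 lay within 500 bp of the annotated end of a host transcript that included them. The median distance over all 75 was 303 bp. The share of all 3′ UTR bases that lie so near an end was not measured, so the count does not set the members apart. In 40 of the 75 the summit was exonic in only 1 of several host transcripts. The strongest was in stas on X, which encodes the fly counterpart of the membrane protein TMEM41B (signal 4651.0, replicate signals 2273.0, 1168.2 and 1251.5). It ranked 112 in replicate 1 and 282 and 287 in the other two. APC7, a subunit of the anaphase-promoting complex, had a signal of 2952.9 (replicate signals 916.4, 933.9 and 1112.1). Its summit lay 213 bp from the end of the transcript and 576 bp upstream of the start of the next gene, pigs. In 24 of the 75 the summit lay upstream of its nearest start site. Lsd-2, a perilipin of lipid droplets, held 3 members, each in the 3′ UTR of only 1 of its 5 transcripts (signals 2512.2, 666.2 and 409.1). All 3 replicates held them, and the first 2 share 1 peak interval. The first of these had 38.6% A+T around its summit, far below the class median of 70.3%.

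The coding sequence members were few and weak. The strongest was in Gbs-70E on 3L, a glycogen-targeting subunit of protein phosphatase 1 (signal 684.6, replicate signals 318.5, 212.8 and 142.1), which ranked 3558, 3683 and 5882. The homeobox gene otp on 2R had 562.8 (replicate signals 178.9, 202.5 and 181.9) and bif on X, whose product binds actin filaments, 495.2 (204.0, 58.4 and 150.9). None of the 3 stood among the 3000 strongest peaks of any replicate. The others, from 417.6 to 268.6, were in CG13116, Pde1c (a cyclic nucleotide phosphodiesterase), su(w[a]) (a splicing regulator), Pvf3 (a PDGF- and VEGF-related ligand), Dph4 (diphthamide synthesis), CG33229, Snx27 (a sorting nexin), CG7530, CG4080, Tsp42Ee (a tetraspanin), capu (a formin) and Ubr1 (a ubiquitin ligase). All 3 replicates held 11 of the 15, 2 replicates held CG4080, Tsp42Ee and Ubr1, and 1 held CG33229. CG33229 and Tsp42Ee had no overlapping peak in replicate 3. In 10 of the 15 the base was exonic in every transcript that spanned it.

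A+T content at the summits was lowest in the coding members. The median A+T content was 70.3% in noncoding exons, 70.3% in 3′ UTRs, 63.4% in 5′ UTRs, 50.5% in coding sequence and 69.3% at intronic summits. All bases of these exon classes away from start sites had medians of 57.4%, 65.3%, 54.5% and 46.5% in the same order. Set against windows 300 bp to either side, A+T was higher at the summit in 102 of 117 noncoding members, 60 of 75 in 3′ UTRs, 39 of 61 in 5′ UTRs and 3 of 15 in coding sequence, and in 4046 of 4559 intronic summits. The median change from flank to summit was 16.3 percentage points in noncoding exons, 12.4 in 3′ UTRs, 5.45 in 5′ UTRs, -6.93 in coding sequence and 15.3 in introns. These windows could lie outside the exon, as the median distance from summit to exon edge was 123 bp in coding sequence. It was 246 bp in 5′ UTRs, 288 in 3′ UTRs and 402 in noncoding exons. The change is therefore not a comparison within exons, and against all coding bases 8 of the 15 coding summits lay above the median. By each replicate's own summits, A+T at coding members was 48.5%, 45.5% and 45.5%. The difference from the intronic median was -20.79, -23.76 and -23.76 percentage points (exact sign-flip permutation p = 0.25, the smallest possible). For all exonic summits together the same difference from introns was -1.98, -2.97 and -1.98 points (mean -2.31 ± 0.57 SD, p = 0.25 by the same exact test).

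**Figure D5:**
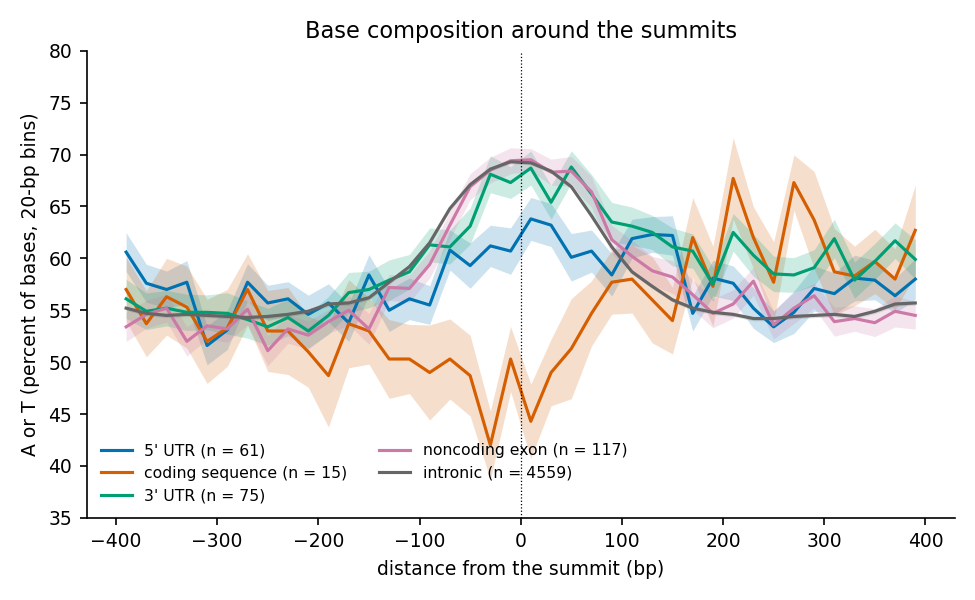
Mean A+T percentage in 20-bp bins by distance from the summit, for the 4 exon classes (read along the host gene's strand) and intronic summits, with shaded SEs over summits. Noncoding exons follow the intronic curve to 69.5% at the summit, 5′ UTRs reach 63.8%, and coding sequence is lowest before it, at 42%.

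Motifs, 8 in all, were counted on both strands within 50 bases of the summit. The A run and GAGAG each had a higher share in 5′ UTR members than in the other exon classes. The run AAAAAAA was at 20.5% of members (95% Wilson interval 16.1 to 25.8), 9.51% of the members' flanks at 300 bp and 16.5% of all IDR summits. Among exonic windows of the same length spaced 1000 bp apart it was at 4.34%. Coding sequence gave 18407 of these 26480 windows but only 15 of the 268 members, so windows and members differ in their mix of classes. In 5′ UTRs it was at 20 of 61 summits (32.8%) against 9.12% of 5′ UTR windows. GAGAG, the element of the GAGA factor, was at 16.8% of members (12.8 to 21.7), 16.6% of their own flanks at 300 bp and 9.63% of all IDR summits. In 5′ UTRs it was at 34.4%, with 22.1% in their flanks at 300 bp and 14.8% in 5′ UTR windows, and in coding sequence at 0 of 15. The E-box CANNTG was at 28.0% of members, 43.3% of their flanks at 300 bp, 30.9% of all IDR summits and 40.8% of exonic windows. AATAAA, the main polyadenylation signal, was at 29.9% of members and 34.4% of all IDR summits, and in 3′ UTRs at 24.0% of members and 27.3% of windows. CACACA was at 6.34% of members and 6.38% of all IDR summits, with 14.8% in 5′ UTRs (15.6% in their flanks) and 2 of 15 in coding sequence. TGTANATA, the Pumilio element, was at 5.97% of members and 5.89% of all IDR summits. GGTCACA was at 1 member and TATCGATA at 0 of 268, where 0.508% of all IDR summits held the latter. Overlaps between motifs were not removed, and a window was counted once for each motif it held.

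Position within the exon was measured from its nearest edge. In 47 of 268 (17.5%) it was within 50 bp of an exon edge, and 14.6% of exonic bases were. In noncoding exons this was 21.4% of members and 10.2% of bases. In 170 members the base was exonic in every transcript that spanned it, and in the other 98 at least 1 transcript had it in an intron. A second IDR summit lay within 1000 bp of 88 members (32.8%), against 31.5% of all IDR summits.

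The members were spread over the large arms, most densely on X. X held 73 members, 14.4 per Mb of exonic sequence away from start sites, and exactly 69 such summits in each replicate. 2L held 53 (11.2 per Mb), 3L 54 (10.7), 3R 50 (7.93) and 2R 38 (7.73). Over the replicates the density was 13.6 per Mb on X in all 3, 10.8 ± 0.302 (SD, n = 3) on 3L and 10.2 ± 0.763 on 2L. It was 7.77 ± 1.04 on 3R and 7.66 ± 0.714 on 2R, and each value on X lay above every value on the other arms. Chromosome 4 had 23 IDR peaks and 0 members, and replicate 1 had 1 exonic summit there. Sexes were pooled, and the copy number of X in the pools is not known.

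Each listed gene group had 0, 1 or 2 genes with a member. Of all 13945 annotated protein-coding genes 140 (1.00%) held a member and 17.1% held an IDR summit of any kind, and of 3261 ncRNA genes 93 (2.85%) and 9.17%. Of 63 matched patterning and cell fate factors, 2 held a member: sd, the DNA-binding partner of Yorkie (signal 342.3), and the muscle factor Mef2 (358.2), and 33 held an IDR summit of any kind. Of 14 ecdysone response factors, which drive metamorphosis, EcR held a member (408.2, in the 5′ UTR of 2 of its 6 transcripts) among its 14 IDR summits, and 13 of the 14 held some summit. Of 47 signalling genes Wnt6 (513.4) did, of 28 RNA-binding proteins mbl (688.7) did, and of 42 chromatin regulators JIL-1 (341.7) and the acetyltransferase nej (297.6) did. nej was also the 1 of 14 genes with long neuronal 3′ UTR forms. In mbl the IDR summit lay 14 bp from the exon edge, and 0 of the 3 replicates met the position rule by their own summit. Of 14 named lncRNAs lncRNA:Vinr and lncRNA:yar (742.8) held members. Of 25 muscle and cytoskeleton genes and 32 neuronal genes 0 held a member, and 10 and 21 held a summit of any kind. The listed groups hold 265 protein-coding entries, genes in several lists counted each time, and the 7 host genes among them are a description with no test.

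The distance of 500 bp cuts through a continuous range. The members nearest above it were in lncRNA:CR44868 (501 bp, signal 329.5), lncRNA:CR44133 (503 bp, 346.3) and CG33144 (506 bp, 419.4). The exonic summits nearest below it were in lncRNA:CR44619 (493 bp, 8833.4), CG14995 (498 bp, 264.7) and Syp (499 bp, 396.1). There were 36 exonic summits at 501 to 600 bp and 50 at 401 to 500 bp, among 1030 exonic summits at any distance.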

How the data were processed

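The authors deposited peak lists on dm6: 1 for each of the 3 replicates, 1 for the pooled replicates and the IDR list. Per the file headers and the labels, the signal and the −log10 q-value of a peak are the caller's own, and another deposited column gives the summit's offset. The peak caller, the aligner and the depth were not given in the sources used here. The −log10 q-value was at its maximum of 4.21 in most rows and was not used to rank. Gene models came from Ensembl release 115, and bases from the RefSeq copy of the release 6 assembly. Summits in more than 1 exon type were assigned to 5′ UTR, coding sequence, 3′ UTR and noncoding exon, in this order. Replicate densities used the strongest 10239 peaks of each list. Differences between classes were tested over the 3 replicates by two-sided exact sign-flip permutation tests. The code was tested on simulated data. Of IDR rows, 89 repeated another row's interval with their own summit and were kept. Host genes were named by a rule: the 12 strongest members, the 3 strongest of each class, all coding members, genes with 3 or more members, listed genes and those at the distance limit. The members and lists were chosen with earlier results of these data known. Alternatives changed the distance, the exons counted, the peaks, the overlap and the window. Python 3.11.15, numpy 2.4.6, pandas 2.3.3, scipy 1.17.1 and matplotlib 3.10.9 were used.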

Additional observations from a re-analysis of the deposited data

How the results depend on the processing

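The low density of exonic against intronic summits kept its sign under all alternatives tried, with mean log2 ratios from -3.45 (1000 bp from a start site) to -2.44 (equal A+T content), and -3.17 to -3.09 without one replicate. It was -2.78 at 250 bp and -3.27 without 100-kb windows that held no peak, so its size moved beyond the replicate SD of 0.08 under these settings. The count of 268 was 406 at 250 bp, 150 at 1000 bp, 151 with protein-coding exons only and 170 where every transcript was exonic. All replicates held 187 of the 268. With 1 replicate set aside, both others held 206 to 215 of them, and the IDR list itself was not remade. The count was 107 in the 5119 strongest IDR peaks. Among these 5119 peaks, members were 2.09% of summits, with 22 in 5′ UTRs, 2 in coding sequence, 31 in 3′ UTRs and 52 in noncoding exons. Their median signal was 1044.5 and A+T 71.3%, and 99.1% were held by all replicates. Among rows held by all replicates, 40 were in 5′ UTRs and 48 in 3′ UTRs, with a median signal of 562.8, A+T of 69.3% and, by construction, 100% held. The share held by all was 33.2% with 5119 peaks of each replicate (42.4% over all IDR peaks), 97.0% with 20478 (97.2%), 59.7% by summits within 100 bp, 60.1% with at least 50% of the peak covered (71.4% and 72.1% over all IDR peaks), and 76.9 to 80.2% without one replicate, an alternative chosen after seeing the data. The replicate share of exonic summits, 2.53%, was 2.06% with 5119 peaks and 4.43% with all. Among members that both other replicates held when 1 was set aside, the median signal was 521.4 to 533.6 and A+T 68.3 to 69.3%. This setting changed only which members were counted, and their IDR signals were not recomputed. A+T was 68.6% over 25 bases to each side and 64.7% over 100. Shares of 6 of the 8 motifs moved with the window, which holds more bases when wider. The causes of the other changes were not tested. Exonic and intronic densities were compared within each replicate.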

Other observations

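Several lncRNA hosts spanned microRNA genes in the annotation, a grouping chosen after the values were seen. Of 37 ncRNA genes that span a microRNA gene on their own strand, 8 held members, 18 in all (15.4% of the 117 in noncoding exons, on 9.71% of that sequence). lncRNA:CR43334, which spans bantam (mir-ban), a growth-promoting microRNA, held 5, the nearest 1439 bp from the hairpin. Its signal in replicates 1, 2 and 3 was 989.2, 759.0 and 916.1. lncRNA:CR43650, which spans mir-8, held 3 between 5059 and 7053 bp from it, with the strongest at 615.9, 612.7 and 416.7. lncRNA:CR46004 (mir-276b), lncRNA:CR46006 (mir-276a), lncRNA:CR45911 (mir-13a, mir-13b-1 and mir-2c) and lncRNA:CR43314 (mir-bft) held 2 each. The 2 in lncRNA:CR46006 were matched to 1 and the same peak in replicate 2 (signal 145.4), and so were the 2 in lncRNA:CR45911 (118.7). lncRNA:CR45345 (mir-375) and lncRNA:CR31044 (mir-279 and mir-996) held 1 each, with signals of 264.6 and 255.7. All 3 replicates held 13 of the 18.

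Words of 7 bases were ranked by their excess at intronic summits, which are not members, over windows 300 bp away, and the first 3 were counted at the members. The first of them was TAATATA, the next was TATTTAA and the last was ATAATAT, each read on both strands. TAATATA was at 29 of 268 members (10.8%) and in 1.12% of their flanking windows, and at 9.21% of intronic summits. TATTTAA was at 10.4% of members, 4.85% of their flanking windows and 13.9% of intronic summits. For ATAATAT these shares were 9.33%, 2.43% and 10.3%. Any of the 3 was at 57 members (21.3%, flanks 7.84%), 26% of intronic and 26.3% of all IDR summits, with 26.7% in 3′ UTRs, 22.2% in noncoding exons, 18.0% in 5′ UTRs and 0 of 15 in coding sequence. All exonic windows of the same length, which were mostly coding sequence, held one in 5.88% of cases. By class this was 16.5% of 3′ UTR, 11.2% of noncoding-exon, 7.1% of 5′ UTR and 2.07% of coding windows. The first and the last word can share 6 bases, so their counts are not separate.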
